A study of Homo sapiens with 24 samples.

Results

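The co-activators YAP (gene YAP1) and TAZ (gene WWTR1) and 8 genes known as their targets or partners were followed in SK-MES1 cells, an established human lung cancer line of squamous origin. The 10 genes were taken by name: YAP1, WWTR1, CCN1, CCN2, ANKRD1, CRIM1, AMOTL2, LATS2, AJUBA and AXL. All 10 were found among the 34834 genes with transcripts in the deposited tables, and all 10 were among the 17454 genes tested. After 3 h of growth factor depletion, one arm received 2 ng/ml TGFβ1 and the other received none. Total RNA was taken at 0, 8, 24 and 48 h, and 3 biological replicates per arm and time gave 24 libraries in 8 groups. The labels name no engineered allele, and all groups shared the depletion and the same line, so the replicates speak for this 1 line only. At 0 h the TGFβ arm had had no time to respond.

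YAP and TAZ are related proteins that carry no DNA-binding domain and act in the nucleus through the TEAD transcription factors. The Hippo kinase cascade, in which the MST kinases activate the LATS kinases, phosphorylates YAP and TAZ and keeps them in the cytoplasm. Among the known targets of the YAP, TAZ and TEAD complexes are the matricellular genes CCN1 and CCN2, ANKRD1, and genes of the pathway's own feedback such as LATS2 and AMOTL2. TGFβ acts through SMAD factors, and CCN2 has long been known as a TGFβ-responsive gene. RNA levels do not show where in the cell the YAP and TAZ proteins are or whether they are phosphorylated.

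Libraries held between 46613589 and 77964234 estimated counts, with a median of 54120879. Replicate 2 of both arms stood apart from its group at 0 and 24 h, and results are given with and without these 4 libraries where this changed a call. The file names carry 4 codes, called run codes here. Whether they mark library preparation or sequencing runs is not stated in the sources used here. Each arm has its own code for the early libraries (0 and 8 h) and another for the late ones (24 and 48 h). The arm and the run code therefore cannot be told apart at a single time point. The changes from 0 to 8 h and from 24 to 48 h lie within 1 code in each arm. SMAD7 and PMEPA1, genes of the direct TGFβ response, were both higher in the TGFβ arm, by 2.27 and 4.11 on the log2 scale averaged over 8, 24 and 48 h. The simple epithelial keratins KRT8 and KRT18 stood between 409 and 975 TPM. EPCAM, at 22.2 to 36.1 TPM, was lower with TGFβ (-0.40 on average, adjusted p = 8.45e-07). CDH1 stood at only 1.20 to 5.22 TPM. Its difference was 0.32 at 8 h (adjusted p = 0.016) and -0.35 at 48 h (adjusted p = 0.00085). The squamous markers were divided. KRT5, KRT6A and KRT14 were at most 0.0622 TPM in any group mean, whereas TP63 stood at 8.74 to 36.8 TPM, SOX2 at 0.432 to 7.41 TPM and KRT17 at 0.433 to 70.5 TPM. KRT17 was higher with TGFβ (4.27 on average, adjusted p = 5.80e-18) and SOX2 was lower (-2.62, adjusted p = 8.19e-16). TP63 averaged 0.45 (adjusted p = 2.38e-12), but its direction turned with time. The TP63 difference of 1.02 after 24 h (adjusted p = 6.37e-11) had become -0.49 by 48 h (adjusted p = 2.60e-06). Of the 3 leukocyte markers CD3E was at 0 in all groups, CD68 stood at 7.89 to 34.9 TPM and PTPRC at 1.37 to 2.01 TPM. PTPRC was lower with TGFβ (-0.33, adjusted p = 0.0074), and the list summed to 9.53 to 36.5 TPM in the TGFβ arm and 11.2 to 33.1 TPM in the untreated arm. The 3 endothelial markers together stayed between 0.865 and 3.81 TPM. The 3 fibroblast markers together ran from 6.87 to 40.8 TPM in the untreated arm and from 7.86 to 31.7 TPM in the TGFβ arm, rising with time in both. Within this list PDGFRB was higher with TGFβ (2.26 at 48 h) and DCN (-3.30) and LUM (-1.30) were lower. Their part in the results was not tested.

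Levels are given as TPM, a transcript abundance relative to its length and to the library total, and differences as the log2 difference between the TGFβ arm and the untreated arm from a limma voom fit of all 24 libraries, with its standard error (SE). A gene was called at an adjusted p under 0.01, with the Benjamini-Hochberg adjustment over all 17454 genes. At 0 h none of the 10 genes was called, and their library levels overlapped between the arms, where 1.69% of all genes had all TGFβ libraries above and 5.31% below. No gene at all was called there by limma or by edgeR (801 and 781 genes had an unadjusted p under 0.05), and DESeq2 called 8. At 8 h 5 of the 10 were called, 4 higher and 1 lower, against 16.4% of all genes tested (9.12% higher, 7.26% lower). At 24 h 7 were called, 5 higher and 2 lower, against 29.3% (15.4% higher, 13.8% lower). At 48 h 9 were called, 4 higher and 5 lower, against 32.6% (16.1% higher, 16.4% lower). In the F-test of the 3 later time points together 9 of 10 passed, 6 higher and 3 lower on average. Of all genes 42.5% passed (21.0% higher, 21.5% lower). CRIM1, counted as lower, averaged -0.06, and the test of that average alone was not called (adjusted p = 0.035). In TPM 5 genes had all TGFβ libraries above the untreated at 8 h and 1 below, against 16.2% and 31.2% of all genes. At 24 h 5 were above and 2 below, against 17.2% and 23.2%, and at 48 h 3 were above and 5 below, against 24.4% and 30.7%. Over the 10 genes the median log2 difference was 0.17 at 8 h, went to 0.16 at 24 h and was -0.13 at 48 h.

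The direction of a small difference depended on the scaling. With TMM factors the median gene lay within 0.02 of 0 in the log2 difference at each of the 3 later time points. With the 4 genes the study used as qRT-PCR references as the scale, the median gene moved to 0.08 at 8 h, 0.34 at 24 h and 0.34 at 48 h, and 87.7% of the genes past the F-test were higher, compared with 49.3% under TMM, 31.5% under library totals and 39.5% under upper-quartile factors. Each log2 difference is therefore relative to the scale used, also where it is over 0.3 in size. Under the 4 reference genes the calls of AJUBA (-0.03) and AMOTL2 (-0.14) at 24 h and ANKRD1 (-0.11) at 48 h were lost. In the F-test all 10 genes passed under that scale, 8 higher and 2 lower, beside 11187 of 17454 genes (9806 higher). With library totals 8 of the 10 passed, 5 higher and 3 lower, beside 8167 genes (2570 higher).

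**Figure D1:**
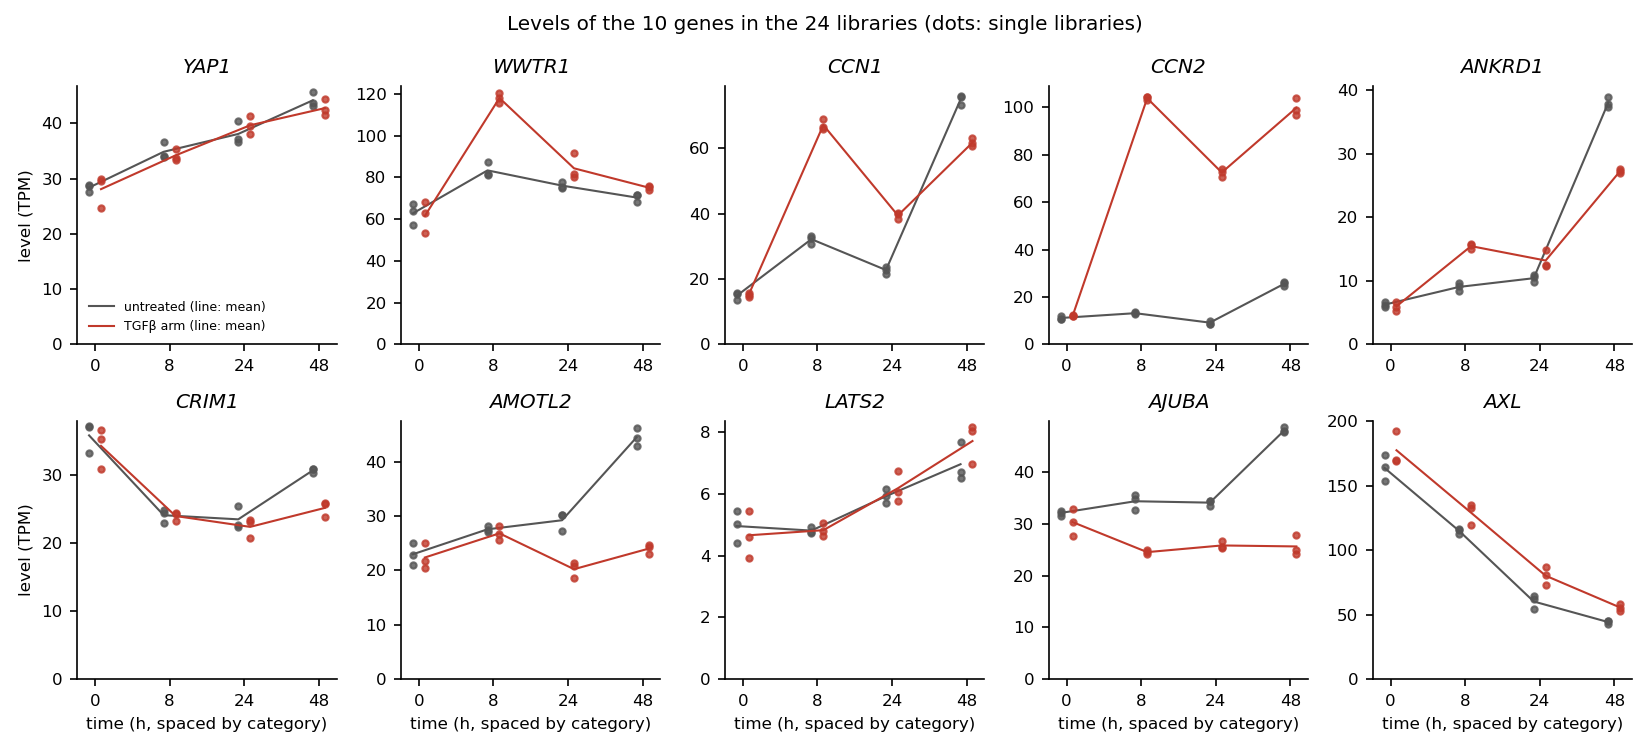
Levels of the 10 genes in TPM (vertical axes, from 0) at 0, 8, 24 and 48 h (horizontal axes, spaced by category), with 1 dot per library (3 per group) and lines through the group means, grey for the untreated arm and red for the TGFβ arm. CCN2 separates widely from 8 h on, CCN1 and ANKRD1 cross between 24 and 48 h, AJUBA and AMOTL2 end lower in the TGFβ arm, and the YAP1 lines run together.

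YAP1 RNA did not differ detectably between the arms at any time, whereas WWTR1 RNA was higher under TGFβ at 8 h. YAP1 (chromosome 11, 102110447 to 102233424, plus strand, GRCh38) had 27.6, 28.7 and 28.8 TPM in the 3 untreated libraries at 0 h and 24.6, 29.6 and 29.99 TPM in the TGFβ arm. At 8 h the untreated libraries had 33.9, 36.5 and 34.1 TPM and the TGFβ libraries 33.4, 33.8 and 35.3 TPM. At 48 h they had 45.7, 43.6 and 43.2 TPM without and 42.3, 44.5 and 41.4 TPM with TGFβ. The libraries of the arms overlapped at every time point. The log2 differences were 0.06 (SE 0.07, adjusted p = 0.64) at 8 h, 0.10 (SE 0.07, adjusted p = 0.30) at 24 h and -0.01 (SE 0.07, adjusted p = 0.95) at 48 h, where the 95% interval ran from -0.14 to 0.13. Under the 4 reference genes YAP1 was called higher at 24 h (0.45) and 48 h (0.34), which is close to the shift of the median gene. YAP1 rose with time instead. Within the run codes it was called higher from 0 to 8 h, by 0.25 in each arm (adjusted p = 0.0094 without and 0.0068 with TGFβ). From 24 to 48 h its change was not called (0.15, adjusted p = 0.094 without and 0.05, adjusted p = 0.64 with TGFβ). Across run codes, its mean TPM at 48 h was 1.56 times that at 0 h in the untreated arm (log2 change 0.54, adjusted p = 1.03e-06) and 1.52 times in the TGFβ arm (0.48, adjusted p = 4.52e-06).

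WWTR1 (chromosome 3, 149517235 to 149736714, minus strand) was the more abundant of the pair in every group. It stood at 63.6, 67.3 and 57.3 TPM in the untreated libraries at 0 h and at 53.3, 68.2 and 63.1 TPM in the TGFβ arm. At 8 h the untreated libraries had 87.2, 81.1 and 81.6 TPM and the TGFβ libraries 120.4, 115.7 and 118.0 TPM. All 3 TGFβ libraries at 8 h thus lay above all others of the gene, and WWTR1 rose in both arms from 0 h, 1.33 times without and 1.92 times with TGFβ. The log2 difference at 8 h was 0.58 (SE 0.06, adjusted p = 6.55e-08), and the change of the difference from 0 to 8 h, within the run codes, was 0.56 (SE 0.08, adjusted p = 4.27e-05).

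At 24 h the untreated libraries had 75.0, 75.5 and 77.5 TPM of WWTR1 and the TGFβ libraries 81.4, 91.6 and 79.9 TPM. At 48 h they had 68.1, 71.5 and 71.3 TPM without and 75.7, 73.9 and 75.6 TPM with TGFβ. The arms still did not overlap, with TGFβ above, but the log2 differences had shrunk to 0.23 (SE 0.06, adjusted p = 0.0030) and 0.20 (SE 0.06, adjusted p = 0.0098). These late calls were lost under several alternatives, for example with library totals (0.13, adjusted p = 0.085 at 24 h and 0.11, adjusted p = 0.15 at 48 h), and the call at 48 h held in 7 of the 24 fits that left out 1 library (adjusted p up to 0.051, without untreated replicate 1 at 48 h). The call at 24 h was lost without untreated replicate 1 or 3 or TGFβ replicate 1 or 2 at 24 h (adjusted p up to 0.022). The ratio of WWTR1 to YAP1 in TPM was 2.21 ± 0.20 (SD, n = 3) untreated and 2.19 ± 0.10 in the TGFβ arm at 0 h. At 8 h it was 2.40 ± 0.18 without and 3.45 ± 0.13 with TGFβ, and by 48 h it had come down to 1.59 ± 0.09 and 1.76 ± 0.08.

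Several transcripts shared each of these genes. YAP1-201 held group means of 26.9% to 33.6% of the TPM of YAP1 and YAP1-208 held 21.7% to 26.7%. WWTR1-203 held 47.6% to 55.7% of WWTR1 and WWTR1-201, with the same protein-coding type, 28.1% to 37.7%. The shares of single libraries scattered widely, with WWTR1-201 between 17.1% and 43.4% in the TGFβ libraries at 24 h, so that no difference in transcript use was read from them. At 8 h, where WWTR1 was highest, both transcripts were higher in the TGFβ arm, WWTR1-203 at 58.9 ± 1.8 against 41.0 ± 0.29 TPM and WWTR1-201 at 43.2 ± 2.0 against 29.1 ± 0.81 TPM (SD, n = 3).

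CCN2 and CCN1 encode secreted matricellular proteins of the same family, formerly CTGF and CYR61, that bind integrins and are among the most used readouts of YAP and TAZ. They parted in this experiment. CCN2 was higher with TGFβ at 8, 24 and 48 h, whereas CCN1 was higher at 8 and 24 h and, under TMM but not under the 4 reference genes, lower at 48 h. CCN2 (chromosome 6, 131948176 to 131951372, minus strand) stood at 10.8, 10.5 and 11.998 TPM in the untreated libraries at 0 h and at 11.8, 12.2 and 11.96 TPM in the TGFβ arm. At 8 h it had 12.7, 13.2 and 13.4 TPM without and 104.3, 104.3 and 103.0 TPM with TGFβ. The log2 difference was 3.04 (SE 0.05, adjusted p = 5.22e-20), an 8.22-fold difference, and no library of one arm came near those of the other.

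At 24 h CCN2 had 8.76, 8.59 and 10.02 TPM in the untreated libraries and 74.1, 72.7 and 70.8 TPM in the TGFβ libraries (log2 difference 3.02, SE 0.06, adjusted p = 4.81e-20). At 48 h the untreated libraries had risen to 25.8, 26.2 and 24.8 TPM, and the TGFβ libraries stood at 99.1, 96.7 and 103.8 TPM. The difference was then 1.98 (SE 0.05, adjusted p = 4.63e-18) or 3.96-fold. The smaller fold at 48 h came with a higher untreated level, since the TGFβ level at 48 h was above that at 24 h. CCN2 had the largest difference of the 10 genes at each of these times, under the main fit. The change from 0 to 8 h of the arm difference was 2.90 (SE 0.08, adjusted p = 5.33e-16).

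CCN1 (chromosome 1, 85580761 to 85584589, plus strand) started at 13.5, 15.4 and 15.7 TPM untreated and 14.6, 15.2 and 15.8 TPM in the TGFβ arm. By 8 h it had reached 30.8, 32.5 and 33.3 TPM without and 69.0, 66.5 and 66.0 TPM with TGFβ, and the log2 difference between the arms was 1.10 (SE 0.04, adjusted p = 3.81e-14). CCN1 rose in both arms, and by 1.04 more on the log2 scale with TGFβ (SE 0.07, adjusted p = 4.27e-10). At 24 h it had 22.8, 21.6 and 23.8 TPM without and 38.3, 40.2 and 39.9 TPM with TGFβ (log2 difference 0.84, SE 0.05, adjusted p = 4.57e-12). The order then turned. At 48 h the untreated libraries had 76.0, 75.6 and 73.4 TPM and the TGFβ libraries 63.1, 60.6 and 61.6 TPM, with the TGFβ libraries all below and a log2 difference of -0.26 (SE 0.04, adjusted p = 3.64e-05), which under the 4 reference genes was 0.09 (adjusted p = 0.16). The ratio of CCN2 to CCN1 in TPM was 0.748 ± 0.061 untreated and 0.788 ± 0.028 in the TGFβ arm at 0 h (SD, n = 3). At 48 h it was 0.341 ± 0.004 without and 1.62 ± 0.06 with TGFβ, so the order of the family members was opposite in the arms.

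ANKRD1 encodes a nuclear ankyrin repeat protein known from stretched and injured muscle and is a frequent YAP readout. ANKRD1 (chromosome 10, 90912096 to 90921087, minus strand) had the same order of the arms as CCN1, at lower levels. It had 5.92, 6.16 and 6.61 TPM untreated and 5.91, 6.71 and 5.30 TPM in the TGFβ arm at 0 h. At 8 h it had 9.10, 8.31 and 9.67 TPM without and 15.6, 14.9 and 15.8 TPM with TGFβ (log2 difference 0.83, SE 0.07, adjusted p = 9.38e-09). At 24 h the values were 9.80, 10.5 and 10.9 TPM without and 12.3, 14.8 and 12.4 TPM with TGFβ (0.37, SE 0.07, adjusted p = 0.00037). The TGFβ libraries lay above the untreated at both times.

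At 48 h ANKRD1 had 37.4, 39.0 and 37.8 TPM in the untreated libraries and 27.2, 27.01 and 27.6 TPM in the TGFβ libraries. The log2 difference was -0.46 (SE 0.06, adjusted p = 2.73e-06), and it was -0.11 (adjusted p = 0.22) under the 4 reference genes. From 0 to 48 h, across run codes, the untreated level of ANKRD1 rose 6.11 times, the most of the 10 genes in that arm, and that of CCN1 rose 5.04 times. CCN2 and ANKRD1 each had 1 transcript in the tables, and CCN1-201 held 96.9% to 98.9% of CCN1, so no choice among transcripts entered their levels.

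**Figure D2:**
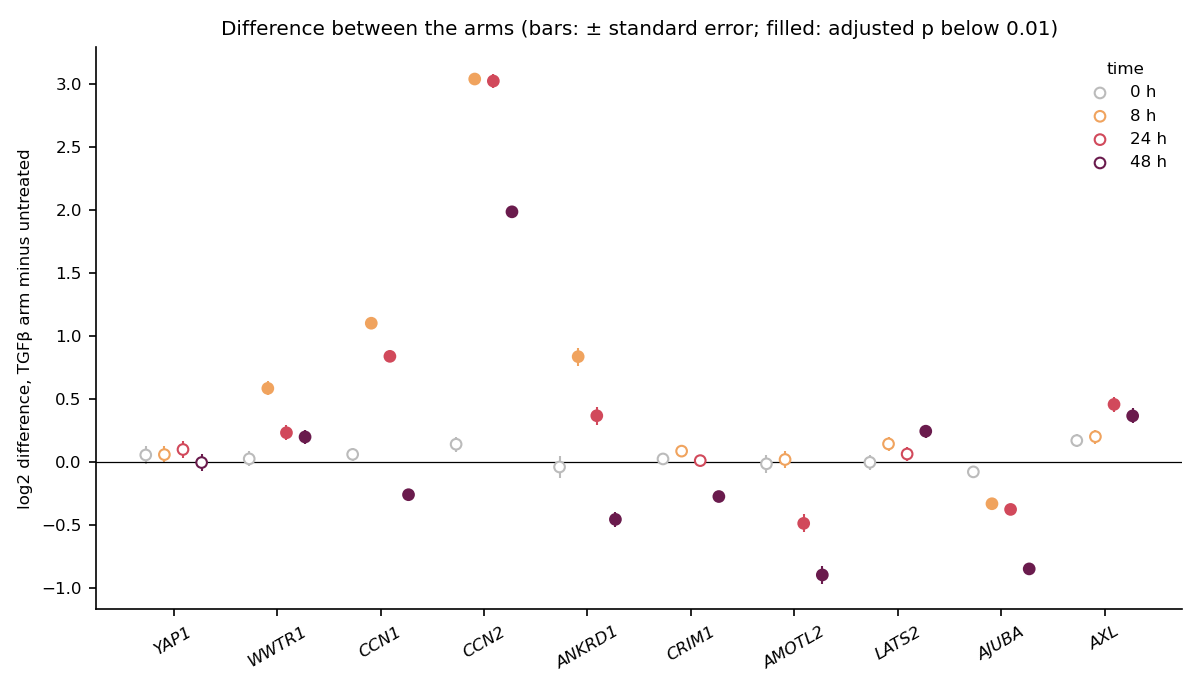
Log2 difference between the TGFβ and the untreated arm (vertical axis) for the 10 genes (horizontal axis) at 0, 8, 24 and 48 h, each point from 3 libraries against 3 in the limma voom fit with TMM factors, bars showing ± 1 SE and filled points an adjusted p under 0.01. CCN2 stands at 3.04, 3.02 and 1.98, and CCN1 and ANKRD1 go from above 0 at 8 and 24 h to below 0 at 48 h, where CCN1 and CRIM1 change sign under the 4 reference genes.

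The promoters of CCN1, CCN2 and ANKRD1 were to be shown where the RefSeq windows held them, which was so for CCN2 and ANKRD1. The motif searched was GGAATG, the core letters of the TEAD site, on both strands of the 250 bases before each RefSeq start (GRCh38.p14). Windows were found for 8 of the 10 genes, 12 windows in all, those of CCN1 and CRIM1 not being among them. The sequences run 5′ to 3′ on the strand of the gene, and capitals mark GGAATG. CCN2 lies at chr6:131951373-131951622 and ANKRD1 at chr10:90921088-90921337, both on the minus strand.
CCN2: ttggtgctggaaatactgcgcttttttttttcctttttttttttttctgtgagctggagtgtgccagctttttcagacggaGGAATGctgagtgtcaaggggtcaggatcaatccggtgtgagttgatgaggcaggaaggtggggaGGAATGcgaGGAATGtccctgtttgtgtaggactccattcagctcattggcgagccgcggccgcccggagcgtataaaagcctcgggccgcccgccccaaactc
ANKRD1: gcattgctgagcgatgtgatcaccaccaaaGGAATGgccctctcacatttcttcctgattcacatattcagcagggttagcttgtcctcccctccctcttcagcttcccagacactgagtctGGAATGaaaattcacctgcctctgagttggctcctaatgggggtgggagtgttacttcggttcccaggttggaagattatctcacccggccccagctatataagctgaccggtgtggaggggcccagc

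CCN2 held GGAATG 3 times, with first bases at -169, -104 and -95 from the start, and ANKRD1 held it 2 times, at -220 and -128. Of 35116 promoter windows 11.9% held it at least once, 0.94% at least 2 times and 0.0826% at least 3 times. It was found 1 time each in windows of YAP1, AMOTL2, AJUBA and AXL, and not in those of WWTR1 and LATS2. For AMOTL2 and AJUBA, which ended lower with TGFβ, the 30 bases around it are shown for comparison. They lie before inner starts at chr3:134374499-134374528 and chr14:22976884-22976913, on the minus strand. In AMOTL2 the match is on the opposite strand, so the capitals read its reverse complement.
AMOTL2: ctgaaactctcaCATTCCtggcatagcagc
AJUBA: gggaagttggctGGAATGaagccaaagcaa

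The letters CAGAC, a SMAD-binding element, were found 1 time in the CCN2 window, at -177 to -173, a few bases before the TEAD letters at -169. They were found 2 times in that of ANKRD1, at -142 to -138 and, on the opposite strand, at -132 to -128, the latter sharing 1 base with GGAATG. Of all windows 38.0% held CAGAC at least once and 8.84% at least 2 times. CAGAC was also found 2 times in a window of AJUBA and 1 time in a window of AMOTL2, genes that ended lower with TGFβ. The windows of AXL held it 1 and 2 times, and those of YAP1, WWTR1 and LATS2 did not hold it. The AP-1 letters TGANTCA stood in the ANKRD1 window at -195 to -189 and in 6.57% of all windows. The CArG box of serum response factor, found in 1.16% of all windows, had no match in the windows of these genes. Such matches are descriptions of the letters in these windows, and binding was not measured here.

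**Figure D3:**
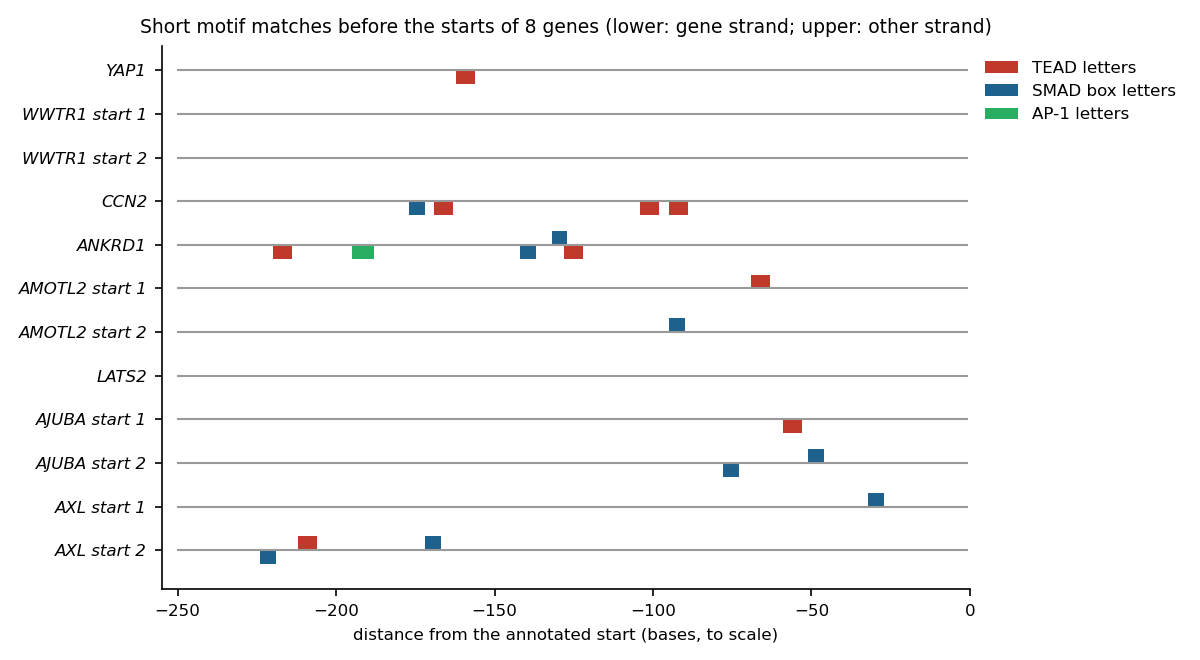
Matches to GGAATG (red), CAGAC (blue) and TGANTCA (green) in the 250 bases before 12 annotated starts of 8 genes, to scale, the horizontal axis giving the distance from the start in bases and each grey line being 1 window. Blocks under a line are on the strand of the gene and blocks over it on the opposite strand. CCN2 carries 3 and ANKRD1 carries 2 GGAATG matches, and the other windows carry 1 or none.

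AMOTL2 and AJUBA, which act on the pathway itself, ended lower in the TGFβ arm. AMOTL2 encodes an angiomotin-like protein of cell junctions that binds YAP and holds it outside the nucleus. AMOTL2 (chromosome 3, 134355347 to 134375479, minus strand) did not differ detectably at 8 h, with 27.03, 28.2 and 27.5 TPM without and 28.2, 26.8 and 25.5 TPM with TGFβ (log2 difference 0.02, SE 0.07, adjusted p = 0.90). At 24 h it had 30.3, 27.2 and 30.3 TPM without and 21.3, 18.6 and 20.8 TPM with TGFβ. At 48 h the untreated libraries had 46.2, 44.4 and 43.0 TPM and the TGFβ libraries 24.7, 24.3 and 22.9 TPM. The arms did not overlap at either time, with log2 differences of -0.49 (SE 0.07, adjusted p = 1.20e-05) and -0.90 (SE 0.07, adjusted p = 1.05e-09). Under the 4 reference genes the value at 24 h was -0.14 (adjusted p = 0.051).

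AJUBA encodes a LIM domain protein of cell junctions that binds LATS kinases and limits the phosphorylation of YAP. AJUBA (chromosome 14, 22971177 to 22982551, minus strand) was the only 1 of the 10 genes called lower at 8 h. It had 32.7, 35.5 and 34.8 TPM without and 24.9, 24.2 and 24.5 TPM with TGFβ, after 31.6, 32.6 and 32.1 TPM and 30.3, 32.9 and 27.7 TPM at 0 h. The log2 difference at 8 h was -0.33 (SE 0.04, adjusted p = 2.18e-06). The change of the difference from 0 to 8 h was -0.25 (SE 0.06, adjusted p = 0.0050), a call that held in 16 of the 24 fits that left out 1 library (adjusted p up to 0.019, without untreated replicate 3 at 8 h) and was lost under the 4 reference genes (-0.15, adjusted p = 0.11).

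At 24 h AJUBA had 34.3, 33.5 and 34.4 TPM without and 25.4, 26.6 and 25.5 TPM with TGFβ (log2 difference -0.38, SE 0.04, adjusted p = 2.12e-07, but -0.03 with adjusted p = 0.58 under the 4 reference genes). At 48 h it had 48.7, 47.9 and 47.6 TPM without and 24.1, 27.8 and 25.0 TPM with TGFβ, and the difference was -0.85 (SE 0.04, adjusted p = 3.67e-13). The untreated level had risen and the level with TGFβ had not, so the TGFβ mean was 0.533 times the untreated mean in TPM. AJUBA-201 held 59.3% to 72.9% of its TPM and AMOTL2-201 held 61.6% to 68.6% of that of AMOTL2. A gene without a symbol on the same strand overlaps AJUBA (0 to 13.5 TPM), and the pseudogene RPL39P5 overlaps AMOTL2 (0 to 3.15 TPM), so reads could be divided among them.

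LATS2 encodes the kinase that phosphorylates YAP and TAZ and is itself induced by them. LATS2 (chromosome 13, 20973036 to 21061586, minus strand) had the lowest mean level of the 10 genes in all 8 groups, with group means of 4.66 to 7.72 TPM, and its libraries overlapped between the arms at all times. At 48 h it had 6.70, 7.70 and 6.51 TPM without and 8.16, 8.03 and 6.96 TPM with TGFβ. The fit called this difference (0.24, SE 0.05, adjusted p = 0.00075), but not on log2(TPM + 1) (0.13, adjusted p = 0.29) or with library totals (0.16, adjusted p = 0.019). LATS2 rose from 0 to 48 h, across run codes, in both arms, by 0.38 on the log2 scale without and 0.63 with TGFβ.

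CRIM1, a transmembrane protein with cysteine-rich repeats that binds BMPs, fell in both arms before any difference between them was called. CRIM1 (chromosome 2, 36355778 to 36551135, plus strand) went from 37.2, 33.3 and 37.2 TPM at 0 h to 24.5, 24.9 and 23.0 TPM at 8 h in the untreated arm. It went from 31.0, 36.7 and 35.3 TPM to 23.3, 24.4 and 24.3 TPM in the TGFβ arm. The log2 changes were -0.67 and -0.61, the arms overlapped at 0, 8 and 24 h, and at 48 h the untreated libraries had 30.9, 30.3 and 31.0 TPM and the TGFβ libraries 25.9, 25.8 and 23.9 TPM. That difference was -0.28 (SE 0.04, adjusted p = 9.77e-06), and it was 0.07 (adjusted p = 0.32) under the 4 reference genes. FEZ2 overlaps CRIM1 on the opposite strand with 49.3 to 75.8 TPM, and whether the libraries kept strand is not stated in the sources used here.

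AXL, a receptor tyrosine kinase that is known as a YAP target and for its part in drug resistance, was the most abundant of the 10 at 0 h and fell steeply with time in both arms. AXL (chromosome 19, 41219223 to 41261766, plus strand) had 173.5, 153.2 and 164.4 TPM untreated and 169.9, 169.4 and 192.7 TPM in the TGFβ arm at 0 h. At 48 h it had 45.2, 44.8 and 42.5 TPM without and 58.1, 55.4 and 53.0 TPM with TGFβ, which is 0.270 and 0.313 times the level at 0 h. The AXL libraries of the arms overlapped at 0 h, and at 8, 24 and 48 h all TGFβ libraries lay above the untreated.

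At 8 h the AXL libraries had 115.8, 116.2 and 112.6 TPM without and 135.3, 132.5 and 119.3 TPM with TGFβ. The log2 difference of 0.20 (SE 0.06, adjusted p = 0.011) missed the threshold, which it passed with DESeq2 (adjusted p = 0.0039), without the 4 libraries that stood apart (adjusted p = 0.000736) and with the replicate block (adjusted p = 0.0050). At 24 h they had 62.2, 54.0 and 64.3 TPM without and 86.8, 73.1 and 80.5 TPM with TGFβ (0.46, SE 0.06, adjusted p = 1.82e-06), and at 48 h the log2 difference was 0.36 (SE 0.06, adjusted p = 4.25e-05). An offset of 0.17 (SE 0.05, adjusted p = 0.83) was present at 0 h, and the change of the difference from 0 to 8 h was 0.03 (SE 0.08, adjusted p = 0.88). AXL-201 held 58.4% to 65.6% and AXL-202 held 30.7% to 36.9% of its TPM.

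From 24 to 48 h, within the run codes, the arm difference of 6 of the 10 genes fell and that of none rose, against 9.11% of all genes tested called in either direction, 3.50% higher and 5.61% lower. The 6 were CCN1 (-1.10, SE 0.06, adjusted p = 3.24e-10), CCN2 (-1.04, SE 0.07, adjusted p = 5.80e-09), ANKRD1 (-0.82, SE 0.10, adjusted p = 3.22e-06), AJUBA (-0.47, SE 0.06, adjusted p = 7.82e-06), AMOTL2 (-0.41, SE 0.10, adjusted p = 0.0078) and CRIM1 (-0.29, SE 0.06, adjusted p = 0.0017). In the untreated arm each of the 6 rose over these hours, and 6 of the 10 genes were called higher and 1 lower there, against 28.4% of all genes (14.8% higher, 13.6% lower). The TPM means went up 3.30 times for CCN1, 2.80 times for CCN2, 3.66 times for ANKRD1, 1.52 times for AMOTL2, 1.41 times for AJUBA and 1.31 times for CRIM1.

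In the TGFβ arm CCN1 went up 1.57 times, CCN2 1.38 times and ANKRD1 2.07 times from 24 to 48 h, all called. AMOTL2 (1.19 times, adjusted p = 0.10), CRIM1 (1.12 times, adjusted p = 0.036) and AJUBA (0.993 times, adjusted p = 0.24) were not called there, and 4 of the 10 genes were called higher and 2 lower, against 26.1% of all genes (12.5% higher, 13.7% lower). YAP1, WWTR1, LATS2 and AXL had no called change of the arm difference in this interval. The call of AMOTL2 held in 10 of the 24 fits that left out 1 library, and its adjusted p went up to 0.025, without TGFβ replicate 1 at 24 h. Under the 4 reference genes the change of CRIM1 kept its size (-0.29) and missed the threshold (adjusted p = 0.041). From 0 to 8 h the arm difference of 5 of the 10 genes changed, against 7.88% of all genes (5.05% higher, 2.84% lower). These were WWTR1, CCN1 (1.04), CCN2 and ANKRD1 (0.88), which rose, and AJUBA, which fell. From 8 to 24 h, across run codes, the arm difference fell for 4 genes, WWTR1, CCN1, ANKRD1 and AMOTL2. Of all genes 6.70% were called there (4.16% higher, 2.54% lower), and time and run code cannot be told apart. Under the 4 reference genes none of these 4 calls held, and the values were -0.09 for WWTR1, -0.004 for CCN1, -0.21 for ANKRD1 and -0.25 for AMOTL2. With 1 library left out the call held in 7 of 24 fits for CCN1, 15 for WWTR1, 19 for ANKRD1 and 24 for AMOTL2.

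Most of the 10 genes moved with time in both arms. From 0 to 8 h 4 were called higher and 2 lower in the untreated arm, against 25.9% of all genes (13.2% higher, 12.7% lower), and 6 higher and 3 lower in the TGFβ arm, against 34.1% (17.6% higher, 16.5% lower). From 0 to 48 h, across run codes, 7 were called higher and 2 lower without TGFβ, against 55.1% (28.0% higher, 27.1% lower), and 6 higher and 3 lower with TGFβ, against 58.2% (29.9% higher, 28.3% lower). CRIM1 and AXL were lower at 48 than at 0 h in both arms, and AJUBA rose without TGFβ (0.49) and fell with it (-0.28).

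**Figure D4:**
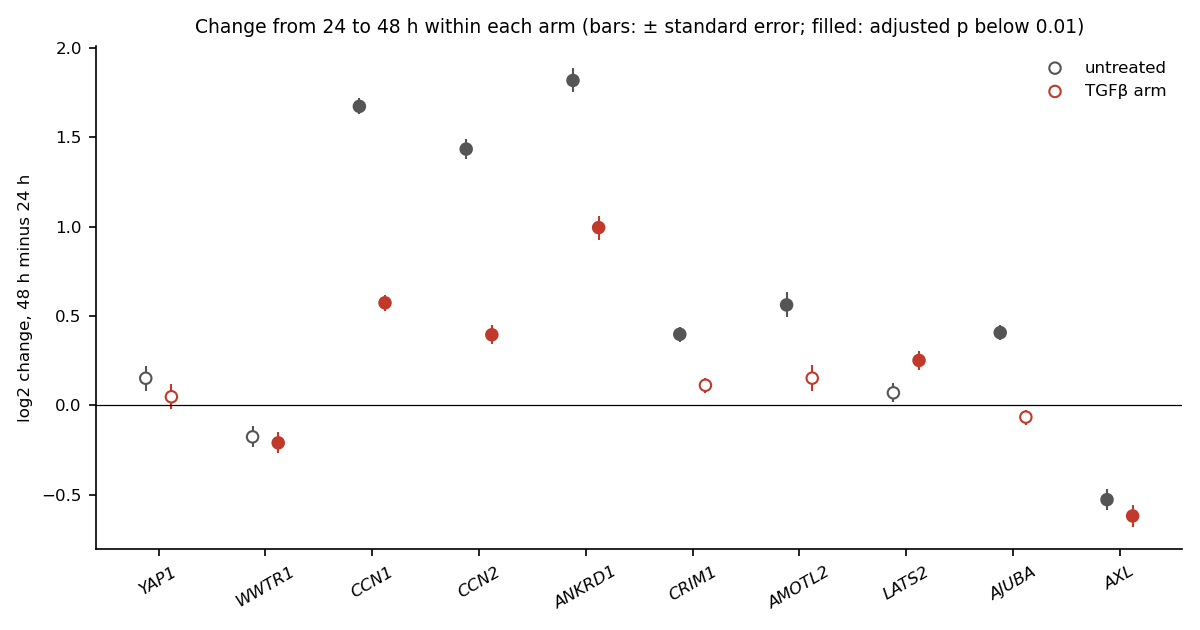
Log2 change from 24 to 48 h (vertical axis) of the 10 genes in the untreated arm (grey) and in the TGFβ arm (red), each from 3 libraries per time point, with bars of ± 1 SE and filled points for an adjusted p under 0.01. For CCN1, CCN2, ANKRD1, CRIM1, AMOTL2 and AJUBA the untreated rise is the larger, and AXL falls in both arms.

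The order of the genes by TPM differed between the arms. At 48 h without TGFβ the highest means were CCN1 (75.0 TPM) and WWTR1 (70.3 TPM), whereas with TGFβ they were CCN2 (99.9 TPM) and WWTR1 (75.1 TPM). At 0 h the order began with AXL and WWTR1 in both arms, and the libraries of CRIM1, AJUBA and YAP1 overlapped with their neighbours in the TGFβ arm. Over the 8 group means of log2(TPM + 1), the genes most like YAP1 were FGD6 (Pearson r = 0.996), ZFP90 (0.996) and RLF (0.994). Those most like CCN2 were OLFM2 (0.989), ZNF354A (0.987) and SH3RF1 (0.982). For CCN1 they were KLF6 (0.979), SLC30A7 (0.977) and TICAM1 (0.975), and for ANKRD1 LRP3 (0.990), IRAK2 (0.981) and CDC42EP2 (0.980). WWTR1 had less close neighbours in PLEKHN1 (0.958), ACTR3 (0.947) and TXNDC11 (0.946). These correlations rest on 8 points from shared libraries and on a search through all genes of at least 10 TPM in some group.

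Among 15 kinases and adaptors of the Hippo cascade, all tested, 7 passed the F-test, all higher with TGFβ, which as a share is near the 42.5% of all genes that passed (21.0% higher, 21.5% lower). The median average log2 difference was 0.14, beside -0.02 over all 17454 genes. FRMD6, a FERM domain protein upstream of the kinases, was the largest of them (1.62, SE 0.03, adjusted p = 2.41e-19). NF2, which encodes merlin, followed with 0.60 (SE 0.04, adjusted p = 4.06e-11) and WWC2, a relative of KIBRA, with 0.34 (SE 0.03, adjusted p = 3.68e-08). Their group means ran from 32.6 to 134.0 TPM for FRMD6 and from 14.9 to 33.1 TPM for NF2. The other 4 were MAP4K4, MOB1A, WWC1 and PTPN14. The kinase gene TAOK2, at 24.9 to 29.9 TPM, and SAV1, which encodes the scaffold of the MST kinases, did not pass, with 0.00073 (adjusted p = 0.77) and 0.08 (adjusted p = 0.021). Under the 4 reference genes 14 of the 15 passed, all higher. Under that scale 11187 of all 17454 genes passed, 9806 of them higher, and the median gene lay at 0.245.

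Of 7 TEAD and vestigial-like (VGLL) genes tested, 5 passed, all higher with TGFβ, beside 42.5% of all genes passing and 21.0% passing higher, and the list's median was 0.30. VGLL3, a TEAD cofactor, differed by 1.33 (SE 0.05, adjusted p = 1.01e-13) at a low level of 1.13 to 3.76 TPM, VGLL4, which competes with YAP for TEADs, by 0.52 (SE 0.03, adjusted p = 3.52e-12), and TEAD1 by 0.30 (SE 0.04, adjusted p = 6.01e-06). TEAD2 and TEAD3 were the others, TEAD4 (-0.03, adjusted p = 0.099) and VGLL2 (0.40, adjusted p = 0.20) did not pass, and VGLL1 was at 0 TPM in all groups. Among the other angiomotins and LIM proteins AMOTL1 (0.60, SE 0.04, adjusted p = 4.12e-10) and WTIP (0.32, SE 0.05, adjusted p = 4.78e-05) were higher, in contrast to AMOTL2 and AJUBA, and LIMD1 (-0.06, adjusted p = 0.075) did not pass. AMOT stood at no more than 0.0166 TPM in any group mean and was not tested.

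All 13 further YAP target genes tested passed the F-test, 5 higher and 8 lower on average, beside 42.5% of all genes (21.0% higher, 21.5% lower), with a median of -0.33. DOCK5, counted as higher, averaged 0.015 (SE 0.028) and was -0.37 at 48 h. RBMS3 and FJX1, also counted as higher, were at -0.21 and -0.22 at 48 h, neither called (adjusted p = 0.10 and 0.066). At that time NT5E was at 0.08 (adjusted p = 0.41) and F3 at 0.46 (adjusted p = 2.76e-06). GADD45A, counted as lower, was at 0.27 at 8 h (adjusted p = 0.00082). Under library totals and under upper-quartile factors DOCK5 was lower on average, with 4 higher and 9 lower. Under the 4 reference genes 12 passed, 6 higher and 6 lower, beside 11187 of 17454 genes (9806 higher), and ASAP1 changed sign. The largest that were higher were the coagulation gene F3, tissue factor (0.73, SE 0.04, adjusted p = 2.41e-12), NT5E, the ectonucleotidase CD73 (0.50, SE 0.04, adjusted p = 1.17e-09), and RBMS3 (0.26, SE 0.06, adjusted p = 1.47e-05). The largest that were lower were CCDC80 (-0.998, SE 0.02, adjusted p = 1.32e-18), IGFBP3, an IGF-binding protein (-0.60, SE 0.04, adjusted p = 1.05e-11), and MYOF, myoferlin (-0.57, SE 0.02, adjusted p = 4.69e-14). Together with the 10 genes, targets of the same co-activators thus went in both directions, and the summed TPM of the 13 was 587 without and 576 with TGFβ at 0 h, 542 and 505 at 8 h, 618.3 and 458 at 24 h and 715 and 447 at 48 h. MYOF and CCDC80, with up to 167.7 and 134.2 TPM, are large terms of these sums.

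Of the 4 other CCN genes 3 were tested and all 3 passed, beside 42.5% of all genes, and CCN6 was close to 0 TPM. CCN3 was above CCN2 in the untreated arm at 0 h (16.4 against 11.1 TPM), and CCN4 and CCN5 were low. CCN4 was higher with TGFβ (0.91, SE 0.09, adjusted p = 7.18e-07, 0.469 to 1.34 TPM), and CCN3 (-1.26, SE 0.03, adjusted p = 3.87e-17, 5.52 to 20.3 TPM) and CCN5 (-1.11, SE 0.14, adjusted p = 4.15e-06, 0.612 to 2.56 TPM) were lower. The family was therefore divided, with CCN2 and CCN4 higher and CCN3 and CCN5 lower. Of the 4 ligands and sister receptors of AXL, the receptor TYRO3 (0.73, SE 0.04, adjusted p = 2.12e-11) and the ligand GAS6 (0.62, SE 0.07, adjusted p = 5.00e-07) were higher. The ligand PROS1 (-0.13, adjusted p = 0.025) and the receptor MERTK (0.81, SE 0.36, adjusted p = 0.099) did not pass.

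**Figure D5:**
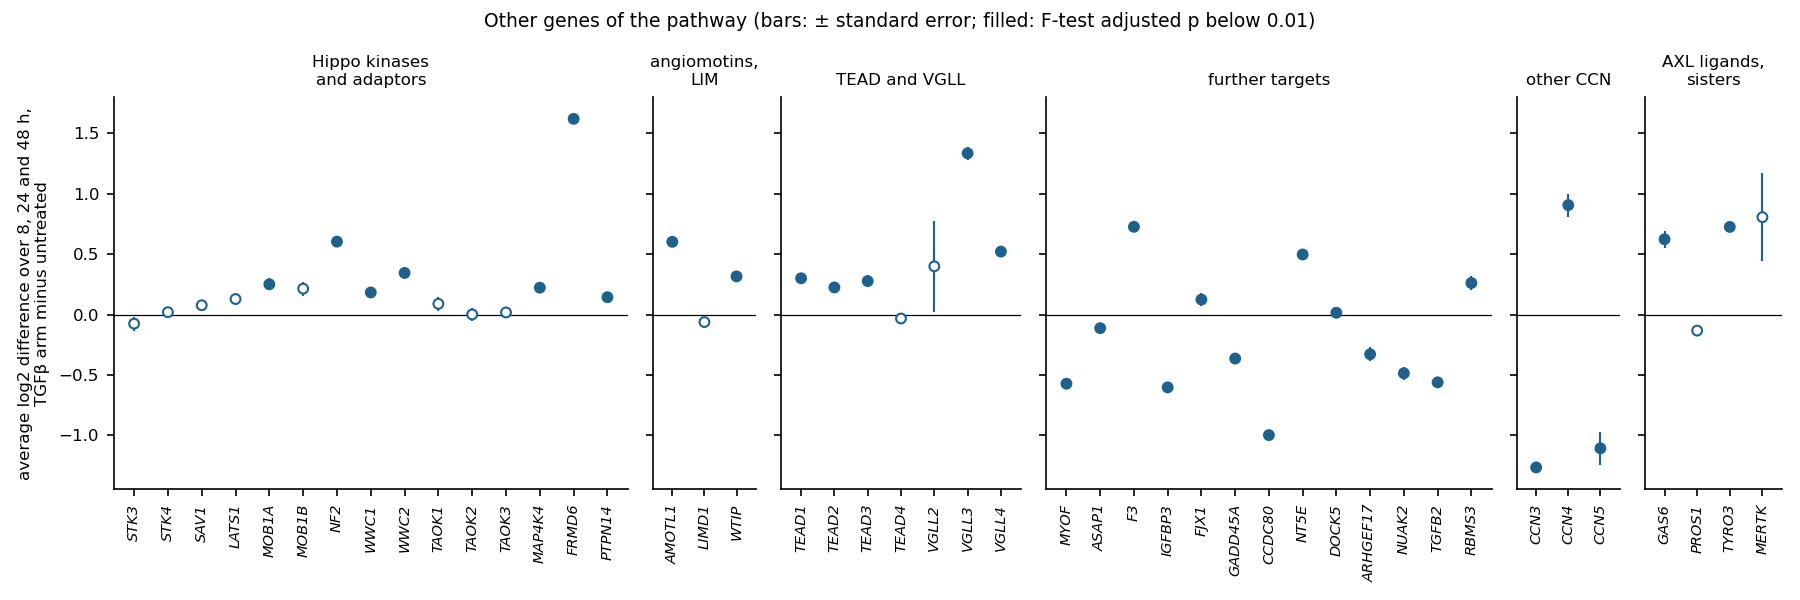
Average log2 difference between the arms over 8, 24 and 48 h (vertical axis) for the tested genes of 6 lists (panels), each from 9 libraries against 9 in the limma voom fit with TMM factors, with bars of ± 1 SE and filled points for an F-test adjusted p under 0.01. FRMD6 at 1.62 and VGLL3 at 1.33 are highest, CCN3 at -1.26 and CCN5 at -1.11 lowest, and ASAP1 changes sign under the 4 reference genes, DOCK5 under library totals and upper-quartile factors.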

How the data were processed

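RNA-Seq of SK-MES1 cells was used, 24 libraries in 8 groups, each group taken from the sample labels. The authors sequenced on an Illumina HiSeq and quantified reads with kallisto 0.43.0 against Ensembl release 79 transcripts of GRCh38, without pooling. Per transcript, the authors deposited kallisto's estimated counts, which are not normalized and need not be whole. TPM was deposited beside them, as counts per effective length scaled to 1 total in each library. Another deposited column, the effective length, entered only the alternative with length-scaled counts. Of 173259 transcripts 155518 (89.8%) were matched by identifier to GENCODE release 44 genes, which held 94.8% to 95.2% of the counts of each library. Counts were summed per gene and rounded, TPM was summed, and genes with at least 10 counts in at least 3 libraries were tested with limma 3.58.1 (voom, TMM factors, 1 mean per group, R 4.3.3), as the study's methods name limma. Pearson correlations used genes of at least 10 TPM in some group. The p-values measure the spread between the replicate libraries of this 1 line, and that spread includes counting error.

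The alternatives were edgeR 4.0.16, DESeq2 1.42.0, log2(TPM + 1) and log2(TPM + 0.1) with limma-trend, other scalings and filters, length-scaled counts, fits of 1 time point, a replicate block, the change from 0 h, and each library left out. Leaving out 4 libraries, and the 4 reference genes and the block within time points for changes between time points, were chosen after seeing the data. The fits were tested on simulated data. The 10 genes, the lists and the tests were chosen with earlier results of these data known. Named were the 10 genes, from each list up to 3 genes passing in each direction by size and up to 2 that did not by level, and other genes of lists where a count is resolved. Promoter windows came from RefSeq. Groups of 3 libraries allow no exact permutation p under 0.10, so none is given. FOXF2, listed among the further targets, was not analysed here. One gene of the TGFβ response list is not reported here.

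Same-numbered libraries of the arms deviated together at 0 h (correlations 0.401, 0.542 and 0.136) and 24 h (0.288, 0.537 and 0.231) but at 8 and 48 h only in 1 of 6 pairs over 0.1, over all genes. The numbers come from the sample labels, which name no shared culture. Since not every pair deviated together, the fit has no block, and blocks are alternatives.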

Additional observations from a re-analysis of the deposited data

Results flagged for a closer look

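The arm difference changed between time points for several of the 10 genes, by the test of that change in the limma fit. From 24 to 48 h it changed by -1.10 for CCN1, -1.04 for CCN2, -0.823 for ANKRD1, -0.473 for AJUBA, -0.410 for AMOTL2 and -0.285 for CRIM1 on the log2 scale. For CCN1 and ANKRD1 the difference went from above 0 to below 0 under TMM scaling. The interval lies within 1 run code in each arm. From 8 to 24 h it changed by -0.507 for AMOTL2, -0.469 for ANKRD1, -0.352 for WWTR1 and -0.263 for CCN1, 4 of the 10 genes against 6.70% of all genes tested. None of these 4 calls held under the 4 reference genes, where CCN1 was at -0.0038 and WWTR1 at -0.093, and with 1 library left out the CCN1 call held in 7 of 24 fits and the WWTR1 call in 15. The run codes change in both arms between 8 and 24 h, so time and run code cannot be told apart in these 4 values.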

How the results depend on the processing

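The counts of the 10 genes called at 8, 24 and 48 h, in the F-test and for the changes from 0 to 8 h and 24 to 48 h stayed within 1.5 times the main count under every alternative run. With the replicate block 6, 7, 9 and 9 genes were called at 8, 24 and 48 h and in the F-test, and 5, 4 and 6 for the changes from 0 to 8 h, 8 to 24 h and 24 to 48 h. The block within each time point gave 7, 7, 9 and 9, adding AXL and LATS2 at 8 h (adjusted p = 0.000713 and 0.0080). The change from 8 to 24 h was the least stable, with 1 gene called under the 4 reference genes and 1 to 4 when 1 library was left out (1 without untreated 8 h replicate 2, untreated 24 h replicate 3, TGFβ 8 h replicate 3 or TGFβ 24 h replicate 3). Among the lists, 14 Hippo kinases and adaptors passed under the 4 reference genes, where 11187 of all 17454 genes passed. In the change from 0 h 1 of the angiomotins and LIM proteins and 3 of the TEAD and VGLL genes passed. With the block within time points 4 AXL ligands and sister receptors passed. The shares of all genes called under the blocks and in the change from 0 h are not given here. The counts under these settings therefore show how the calls moved with the setting and say nothing particular of the genes.

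Values near 0 changed sign. For YAP1 the 8 h difference was -0.0272 with library totals, -0.0261 on log2(TPM + 1) and -0.0267 on log2(TPM + 0.1), the 48 h difference was 0.343 under the 4 reference genes and between -0.0362 and 0.00909 with 1 library left out, and the average was -0.0382, -0.00490 and -0.00500 under the same 3 settings. For CRIM1 it was -0.00647 and -0.00670 at 8 h on the log2(TPM) scales, at 24 h -0.0867 with library totals, -0.0478 with upper-quartile factors, -0.0667 and -0.0693 on the log2(TPM) scales, -0.0297 with length-scaled counts, -0.00884 with 10 counts asked of all libraries, -0.00865 without the 4 libraries and -0.00354 to 0.0255 with 1 left out. Under the 4 reference genes CRIM1 was 0.0730 at 48 h and 0.202 on average, and CCN1 was 0.0876 at 48 h. AMOTL2 at 8 h was -0.0663 with library totals, -0.0229 with upper-quartile factors, -0.0387 and -0.0400 on the log2(TPM) scales and -0.0122 to 0.0490 with 1 library left out. LATS2 at 24 h was -0.0341 with library totals. The change of AXL from 0 to 8 h was -0.0286 with library totals and -0.00747 to 0.0862 with 1 library left out. When changes since 0 h were tested, LATS2 (adjusted p = 0.072) and AXL (adjusted p = 0.019) no longer passed the F-test. LATS2 also missed it with library totals (adjusted p = 0.060), on log2(TPM + 1) (0.61), on log2(TPM + 0.1) (0.63) and with length-scaled counts (0.26), where CRIM1 missed it too (0.015), and with the libraries of 24 h alone ANKRD1 missed the threshold there (adjusted p = 0.0146). Of 20 levels at 48 h, 7 moved by more than 1 SD with protein-coding transcripts only. The causes were not tested.

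Of 2000 tested alternative values of single genes 31 had the other sign, among which 2 lost and 1 gained a call, 111 lost and 20 gained a call with the same sign, and 1838 kept sign and side of the threshold. The depth allowed the 10 genes to be measured with at least 380 counts in each group mean, and the run codes limit the arm differences at each time point.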
